A study of Mus musculus with 2 samples.

Results

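The respiratory chain was followed through its transcripts: every gene whose symbol starts with Nduf, Uqcr, Atp5, Cox4, Cox5, Cox6, Cox7 or Cox8, together with Sdha, Sdhb, Sdhc, Sdhd, Cycs, Cyc1 and all symbols starting with mt-. The mt- symbols in the count tables are the protein genes of the mitochondrial genome, without its ribosomal and transfer RNAs. The rule took 108 of the 31053 genes in the count tables. Of these, 13 are encoded in mitochondrial DNA, 87 are nuclear genes for subunits and 8 are nuclear assembly factors of complex I (the Ndufaf genes). By complex, the nuclear and mitochondrial members numbered 36 and 7 for complex I, 4 and 0 for complex II, 9 and 1 for complex III, 20 and 3 for complex IV, and 17 and 2 for complex V. Cycs, the soluble electron carrier cytochrome c, is the remaining nuclear member. Ndufa4 and Ndufa4l2 were counted with complex IV, where the Ndufa4 protein is found.

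The cells were retinal cells of C57BL/6 mice sorted for CD45, which blood leukocytes carry at a high level and microglia at a low one. 1 library was labelled wildtype and 1 carried the title genotype Igfbpl-/1, read here as Igfbpl1-/- because the labels' protocol names such mice; it is called the library labelled knockout. Igfbpl1 is named for its likeness to the binding proteins of insulin-like growth factors. The design text names 10 mice of each genotype aged 8 to 10 months; the labels do not say how many entered each library, nor which part of the gene was deleted. With 1 library per group there is no replicate check and no test between genotypes: every interval here is a 95% interval that covers counting error only.

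Electrons enter the chain at complex I (NADH dehydrogenase) and complex II (succinate dehydrogenase), pass through complex III and cytochrome c to complex IV (cytochrome c oxidase), and the resulting proton gradient drives complex V (ATP synthase). Complexes I, III, IV and V are built from proteins of both genomes, and complex II from nuclear genes only. The mitochondrial genes are transcribed as long polycistronic RNAs that are cut into single messengers, whereas the nuclear genes are read one by one. Photoreceptors and other retinal neurons are rich in mitochondria.

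The tables held 2735 and 1785 cell barcodes with 11020717 and 7945713 unique molecular identifiers (UMIs, counted molecules), in the order wildtype then knockout label, which holds for all paired values below. Barcodes with at least 500 UMIs and 250 genes were kept, 2722 and 1779, with medians of 3892 and 4256 UMIs, and 1 barcode sequence occurred in both. Igfbpl1 gave 2 counts in the library labelled wildtype and 29 counts in 27 barcodes of the library labelled knockout, which goes against the labels; whether the counted 3′ end lies outside the deleted part is not stated, so the libraries are called by their labels throughout. A cell was assigned to a class when it had counts of at least 3 of 8 fixed markers and of at least 2 more than for any other class. This gave 2393 and 1500 microglia, in which all 8 microglial markers had counts. A minimum of 8 cells per library also left Müller glia or astrocytes (50 and 37 cells), monocytes (10 and 31), B cells (17 and 8), neutrophils (14 and 13), rods (16 and 12) and bipolar cells (14 and 10). Too few cells fell in the T or NK cell gate (2 and 17), the endothelial gate (2 and 3) and the border macrophage gate (3 and 0), and 201 and 148 cells met no gate.

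Of the neighbouring mitochondrial genes, mt-Atp8 and mt-Atp6 and likewise mt-Nd4l and mt-Nd4 share bases on the same strand. mt-Atp6 and mt-Co3 also meet in a shared base and are not counted among these pairs. The upstream gene of each of these pairs is shown because both held a smaller share of microglial UMIs under the knockout label. Their common direction was therefore set by the choice. Sequences are from the GENCODE transcripts of the GRCm38 build, 5′ to 3′ on the plus strand, and capitals mark the bases shared with the next gene. The first gene lies at chrM:7766-7969 (204 bases) and shares 43 bases, chrM:7927-7969, with mt-Atp6; the second lies at chrM:9877-10173 (297 bases) and shares 7 bases, chrM:10167-10173, with mt-Nd4.
mt-Atp8: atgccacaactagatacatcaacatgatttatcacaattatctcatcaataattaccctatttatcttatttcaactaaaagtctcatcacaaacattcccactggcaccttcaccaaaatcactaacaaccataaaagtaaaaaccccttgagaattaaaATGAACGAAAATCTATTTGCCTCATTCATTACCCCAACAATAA
mt-Nd4l: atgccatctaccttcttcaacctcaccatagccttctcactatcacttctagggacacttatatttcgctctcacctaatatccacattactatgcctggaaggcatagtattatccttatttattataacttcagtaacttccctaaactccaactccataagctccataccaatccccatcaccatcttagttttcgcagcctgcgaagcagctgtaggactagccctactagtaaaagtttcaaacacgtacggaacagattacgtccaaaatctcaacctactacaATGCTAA
Each of these pairs is known to be translated from 1 shared messenger. The libraries count 3′ ends, so counts in an upstream gene of such a pair need not measure the level of the shared messenger. How such counts arose was not tested. A read that lies only in shared bases cannot be given to either gene.

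Levels were then set side by side between classes. Levels are given as the share of all UMIs or as counts per 1000000 UMIs (CPM). The libraries are built to count 1 end per messenger, so levels were not divided by gene length. Counts in mt-Nd4l and mt-Atp8 lie upstream of the end of their shared messengers, so this does not hold for them. In microglia, mitochondrial genes held 1.36% and 1.45% of UMIs and the nuclear subunit genes 1.43% and 1.46%, close to 1 mitochondrial count per nuclear count (0.956 and 0.994). Neutrophils were lowest, with 0.240% (0.185 to 0.307) and 0.327% (0.264 to 0.399) mitochondrial UMIs from 63 and 95 counts, while their nuclear genes held 1.14% and 1.16%. Their mitochondrial count per nuclear count was accordingly 0.211 and 0.281. Monocytes went the other way in the nuclear set, with 2.39% and 2.17% nuclear against 1.61% and 1.60% mitochondrial UMIs.

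Retinal neurons held the most of both sets. Rods, the dim-light photoreceptors, had 7.77% and 6.78% mitochondrial and 5.30% and 5.13% nuclear UMIs. Bipolar cells, the interneurons that photoreceptors contact, had 9.09% and 11.7% mitochondrial and 4.08% and 4.05% nuclear UMIs. B cells had a high mitochondrial share (3.92% and 3.94%) with a nuclear share near that of microglia (1.68% and 1.53%), so that mitochondrial counts were 2.33 and 2.58 times the nuclear counts. Without the 1 B cell of the wildtype label above 15% mitochondrial UMIs the share was 3.48% and the ratio 2.04. Rods and bipolar cells each held 2 and 1 such cells. Without them the mitochondrial share was 6.52% and 5.81% in rods and 8.29% and 11.2% in bipolar cells. Mitochondrial per nuclear counts were then 1.16 and 1.12 in rods and 2.04 and 2.80 in bipolar cells. Müller glia or astrocytes spread widely between cells: the quartiles of the cells ran from 0.555% to 4.62% and from 0.675% to 3.17% mitochondrial UMIs, around summed shares of 3.03% and 2.46%.

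**Figure D1:**
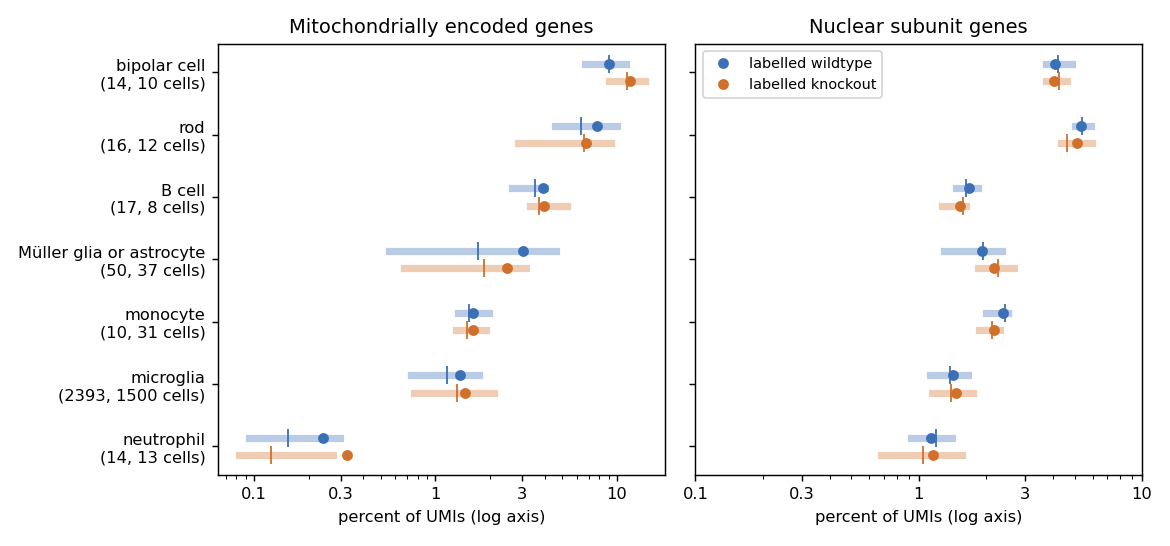
Percent of UMIs (log axis) on mitochondrially encoded genes (left) and nuclear subunit genes (right) in 7 marker-gated classes of both libraries; dots are summed shares, ticks the median cell and bars the quartiles of cells. Neutrophils lie lowest on the left at 0.240% and 0.327%, and bipolar cells highest at 9.09% and 11.7%; on the right, rods lie highest at 5.30% and 5.13%.

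These class levels come from few cells outside microglia, and depth differed: the median rod had 1234 and 1064 UMIs and the median neutrophil 1806 and 2213. Microglial markers summed to 10284 and 10561 CPM in microglia and to between 0 and 484 CPM in the other 6 classes. The gate asks for at least 2 fewer microglial markers than own markers, so it partly set these low sums. How much microglial RNA those cells carried was not tested. A CD45 sort does not select neurons, and the share of neurons among sorted cells was not read. Cells with at least 3 border macrophage markers, 68 and 54 cells of which 46 and 33 also met the microglia gate, had 1.80% and 1.90% mitochondrial and 1.44% and 1.36% nuclear UMIs; this looser class was added after the gate had been seen to take 3 and 0 cells.

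Between libraries, the nuclear share in microglia differed by a ratio of 1.03 (1.02 to 1.03, knockout over wildtype label) and the mitochondrial share by 1.07 (1.06 to 1.08). Neither ratio was steady over depth. Microglia were binned by UMIs per cell after their depth had been seen: between 1500 and 3000 UMIs the mitochondrial share was 1.79% and 2.59% (ratio 1.45, 1.42 to 1.48), while between 3000 and 5000 UMIs it was 1.10% and 1.11% (1.00, 0.988 to 1.02). From 5000 to 8000 UMIs the order turned, with 1.37% and 1.29% (0.948, 0.935 to 0.961). Above 8000 UMIs it was 1.65% and 1.69%, and in the lowest bin, 500 to 1500 UMIs, 2.86% and 3.31%. Nuclear ratios in the same bins, from shallow to deep, were 0.859, 1.18, 1.02, 0.963 and 1.03, so the nuclear set had no common direction either.

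**Figure D2:**
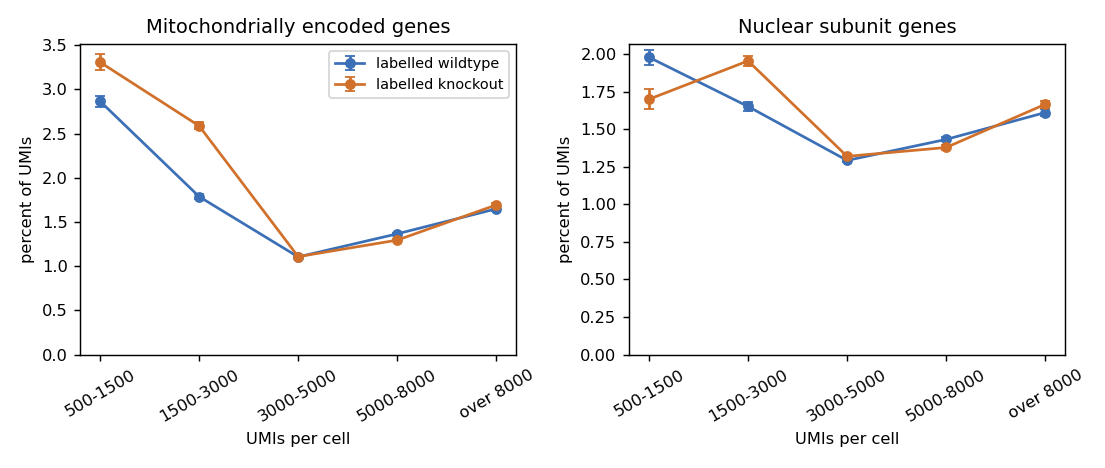
Percent of UMIs on mitochondrially encoded genes (left) and nuclear subunit genes (right) in microglia binned by UMIs per cell, 1 line per library with 95% counting intervals. The libraries stand apart between 1500 and 3000 UMIs (1.79% and 2.59% on the left) and lie together between 3000 and 5000 UMIs (1.10% and 1.11%).

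Shallow microglia differed by whether they carried a stress program, and not in the same way in every bin. Between 1500 and 3000 UMIs, cells without a dissociation and stress program (fewer than 3 of Fos, Jun, Junb, Egr1, Hspa1a, Hspa1b, Dusp1 and Atf3) had 2.63% and 2.78% mitochondrial and 2.21% and 2.31% nuclear subunit UMIs. Cells with that program had 1.04% and 2.11% mitochondrial and 1.15% and 1.05% nuclear UMIs. Between 500 and 1500 UMIs the mitochondrial order was the opposite, with 2.81% and 3.19% in cells without the program and 3.18% and 3.57% in cells with it, while the nuclear share was again larger without it (2.17% and 2.16% against 0.838% and 0.711%). Between 1500 and 3000 UMIs the nuclear-retained RNA Malat1 held 0.240% and 0.042% of UMIs in cells without the program and 3.33% and 4.05% in cells with it, and ribosomal protein genes 20.3% and 21.0% against 9.45% and 7.76%. Median depths in that bin were 1924 and 1974 UMIs without the program and 2664 and 2261 with it. Cells without the program were 198 of 376 and 211 of 284 in this bin, so the bin's make-up differed between libraries. Over all depths the median microglia had 1602 and 1881.5 UMIs without the program and 4380 and 4856.5 UMIs with it. Over all microglia without the program, 451 and 344 cells, the mitochondrial share was 2.59% and 2.57%. That ratio was 0.991 with an interval that spans 1 (0.972 to 1.01), unlike the interval over all microglia. In microglia with the program the ratio was 1.05 (1.045 to 1.06). The part that cell state, free RNA or RNA quality plays in these shares was not tested.

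Microglia in the cell cycle had a larger nuclear subunit share in both libraries. Those with at least 3 cell cycle genes (27 and 14 cells) had 1.80% (1.74 to 1.86) and 1.87% (1.77 to 1.97) nuclear UMIs, against 1.42% and 1.46% in the others. Their mitochondrial shares were 1.67% and 1.61% against 1.36% and 1.45%, and their median depths 7699 and 3272 UMIs. Cells with the phagocyte program (at least 3 of Spp1, Gpnmb, Fabp5 and Lgals3, in any gate) had 1.92% and 2.09% nuclear and 2.21% and 1.59% mitochondrial UMIs in 10 and 19 cells, at median depths of 9494 and 9165 UMIs. Of these, 9 of 10 and 9 of 19 met the microglia gate, and those 9 and 9 had 2.22% and 1.95% mitochondrial and 1.92% and 2.02% nuclear UMIs. Microglia with an interferon program, 206 and 196 cells, stayed near the rest with 1.48% and 1.51% nuclear and 1.30% and 1.43% mitochondrial UMIs.

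The complexes took different shares of the chain's RNA in microglia. Nuclear genes summed to 4508 and 4648 CPM for complex I, 338 and 330 CPM for complex II, 1558 and 1597 CPM for complex III, 3829 and 3944 CPM for complex IV and 3955 and 4020 CPM for complex V. Mitochondrial genes summed to 3207 and 2995 CPM for complex I, 2019 and 2046 CPM for complex III, 6159 and 6857 CPM for complex IV and 2239 and 2634 CPM for complex V. The mitochondrial set outweighed the nuclear set in complexes III (1.30 and 1.28 counts per nuclear count) and IV (1.61 and 1.74), and lay below it in complexes I (0.711 and 0.644) and V (0.566 and 0.655). The nuclear sums of complexes I, III, IV and V had ratios of 1.02 to 1.03 between libraries and that of complex II 0.976 (0.925 to 1.03). The mitochondrial sums parted: complex I was lower under the knockout label (0.934, 0.918 to 0.9504), complex III close to equal (1.01, 0.992 to 1.04), and complexes IV (1.11, 1.10 to 1.13) and V (1.18, 1.154 to 1.1997) higher.

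**Figure D3:**
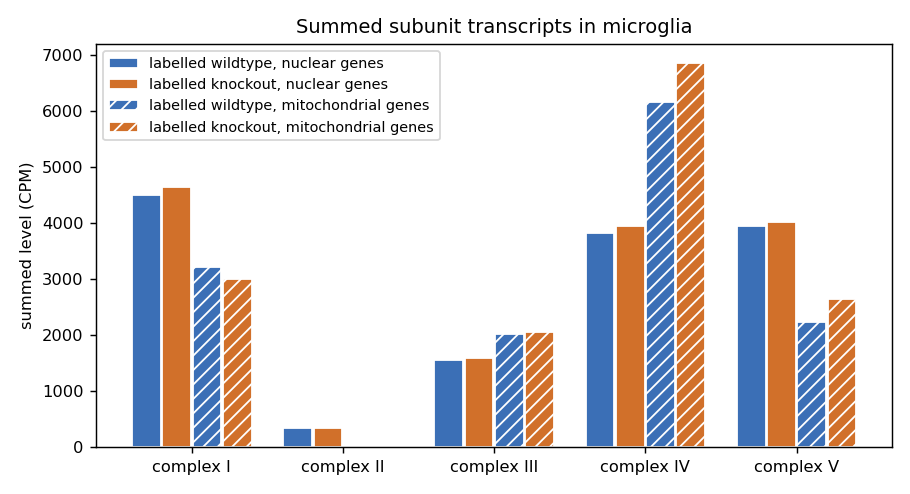
Summed level in microglia (CPM, bars from 0) of nuclear (plain) and mitochondrial (hatched) subunit genes of each complex in both libraries. Nuclear bars are nearly equal between libraries, while mitochondrial bars are lower under the knockout label in complex I (3207 and 2995 CPM) and higher in complex V (2239 and 2634 CPM); complex II has no mitochondrial genes.

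The lower mitochondrial sum of complex I did not hold for all its genes, whereas every mitochondrial gene of complex IV was higher. mt-Nd4l, a small membrane subunit of complex I, gave 4286 and 1496 counts, or 426 and 218 CPM, a log2 ratio of -0.97 and a ratio of 0.511 (0.482 to 0.543). Its counts were spread over 1615 and 757 microglia with at most 31 and 25 in a cell, so few cells did not set the level. As a share of all mitochondrial counts it was 3.13% and 1.499%. That share was lower under the knockout label in all 7 classes and in ungated cells, and the counting interval of the ratio lay below 1 in 6 of these 8. It was also lower in all 5 depth bins, by ratios of 0.266 to 0.617, with the smallest difference above 8000 UMIs. In microglia without the dissociation and stress program described above the log2 ratio of mt-Nd4l was -1.48. Those cells were shallow, with medians of 1602 and 1881.5 UMIs, and the part of depth in that value was not tested.

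Other genes of complex I differed in both directions. mt-Nd5, which forms part of the proton-pumping arm, was at 230 and 181 CPM (log2 ratio -0.34), and mt-Nd4 at 1109 and 935 CPM (-0.25). mt-Nd1, mt-Nd2 and mt-Nd3, also membrane subunits, were at 625 and 722, 645 and 742, and 152 and 181 CPM, with log2 ratios of 0.21, 0.20 and 0.25. mt-Nd6, the 1 member read from the other strand, had 200 and 119 counts, and its interval spanned 1 (ratio 0.872, 0.689 to 1.10). It overlaps mt-Nd5 by 14 bases on opposite strands.

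The 5 most abundant members were mitochondrial genes of complexes III, IV and V. mt-Co1, which holds the oxygen-reducing centre of complex IV, was at 2469 and 2821 CPM, mt-Co2 at 2081 and 2249 CPM and mt-Co3 at 1609 and 1786 CPM, with log2 ratios of 0.19, 0.11 and 0.15. mt-Cytb, the mitochondrial subunit of complex III, was at 2019 and 2046 CPM (0.02). Under the alternatives mt-Co2 ran from -0.01 to 0.22 and mt-Cytb from -0.14 to 0.09, so neither kept its direction. mt-Co1 ran from 0.10 to 0.31 and mt-Co3 from 0.02 to 0.23. mt-Atp6, part of the proton channel of complex V, was at 2190 and 2597 CPM (0.25), and its upstream neighbour mt-Atp8 at only 49.2 and 37.1 CPM (-0.41) from 495 and 255 counts. Both upstream genes shown above thus had fewer counts per count of their downstream partner under the knockout label: mt-Nd4l per mt-Nd4 was 0.384 (0.371 to 0.398) and 0.233 (0.220 to 0.247), and mt-Atp8 per mt-Atp6 0.0225 (0.0205 to 0.0246) and 0.0143 (0.0126 to 0.0162). Total depth cancels in these ratios.

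**Figure D4:**
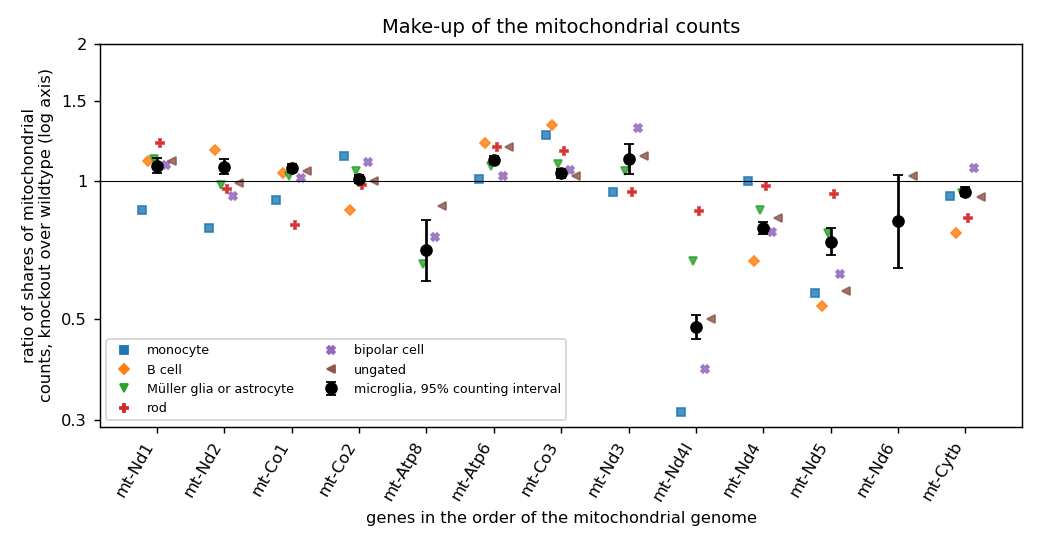
Ratio (log axis) between libraries of each mitochondrial gene's share of mitochondrial counts, genes in genome order. Black points with 95% counting intervals are microglia. Coloured points are ungated cells and the other classes except neutrophils, drawn where a gene had at least 10 counts in both libraries. mt-Nd4l lies below 1 in every class plotted, and in microglia its share was 3.13% and 1.499%.

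Over the depth bins, 5 further genes had lower shares under the knockout label in all 5 bins. The ratios of mt-Atp8, mt-Nd4 and mt-Nd5 lay at 0.475 to 0.921, 0.720 to 0.832 and 0.601 to 0.814, those of mt-Nd6 at 0.462 to 0.994 and those of mt-Cytb at 0.909 to 0.982. The counting interval of mt-Nd6 spanned 1 in all 5 bins. Those of mt-Atp8 and mt-Cytb spanned 1 in the bins of 500 to 1500 and of 3000 to 5000 UMIs. The intervals of mt-Nd4 and mt-Nd5 lay below 1 in every bin. The ratio of mt-Atp6 lay above 1 in all 5 bins, in all 7 classes and in ungated cells. Over the classes and ungated cells its interval lay above 1 in 3 of 8. Between classes, mt-Nd5 was lower in 7 of 8 and mt-Nd4 in 6 of 8, with intervals below 1 in 4 and 5. mt-Atp8 was lower in 6 of 8, with an interval below 1 in 1. Since shares of 1 total must add up, a lower share of 1 gene raises the others.

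Nuclear subunit genes in microglia differed little between libraries. Of the 87, 75 reached 50 CPM in at least 1 library. Their median log2 ratio was 0.03, beside -0.03 for the 3224 genes at that level and -0.04 for the 2573 of them within the same range of levels. Ratios were above 1 for 52 of the 75, or 69.3%, beside 41.9% of the 3224 genes; members of 1 chain are not independent, and no test was made. At least 1.2-fold higher were 2 of 75 (Cycs and Ndufs6), where 4.34% of all 3224 genes were, and 0 were at least 1.2-fold lower, where 6.95% of all genes were. Past 1.5-fold there was no nuclear subunit gene, with 0.744% of all genes higher and 0.496% lower. Among the 13 mitochondrial genes, 11 reached 50 CPM, of which 0 passed 1.2-fold upwards and 2, mt-Nd4l and mt-Nd5, passed it downwards.

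**Figure D5:**
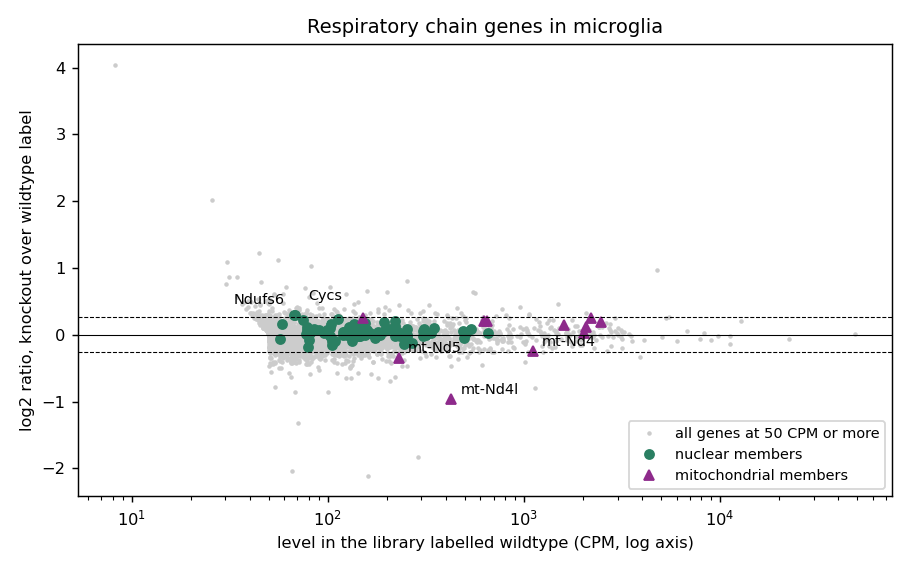
Log2 ratio between libraries against level (CPM, log axis) in microglia for genes at 50 CPM or more: grey all 3224 genes, circles nuclear members, triangles mitochondrial members; dashed lines mark 1.2-fold. Nuclear members lie in a narrow band whose highest points are Cycs (0.30) and Ndufs6 (0.29), while mt-Nd4l lies at -0.97.

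By complex, the 2 most abundant members and the ends of the range were as follows. In complex I, Ndufc2 (246 and 247 CPM) and Ndufa13 (227 and 233 CPM) were highest in level. Ndufs6, a zinc-binding accessory subunit, had the highest ratio (67.7 and 83.0 CPM, log2 ratio 0.29) and Ndufa9, an accessory subunit at the joint of the arms, the lowest (79.2 and 69.9 CPM, -0.18). Over the 35 complex I genes at 50 CPM, 25 ratios were above 1, beside 41.9% of all 3224 genes. In complex II, Sdhb, the iron-sulphur subunit, was at 133 and 125 CPM (-0.09) and Sdha, the flavoprotein, at 85.2 and 90.0 CPM (0.08). Sdhc stayed under 50 CPM at 42.1 and 37.0.

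In complex III, Uqcrh, the hinge protein beside cytochrome c1, was at 349 and 375 CPM (0.10) and Uqcr11 at 221 and 242 CPM (0.13). Uqcrfs1, the Rieske iron-sulphur protein, had the lowest ratio with 105 and 94.1 CPM (-0.15). In complex IV, Cox8a led all nuclear members with 653 and 667 CPM (0.03), followed by Cox4i1 with 536 and 569 CPM (0.08). Cox7a2l had the highest ratio there (193 and 220.5 CPM, 0.19) and Ndufa4 the lowest (304 and 302 CPM, -0.01). In complex V, Atp5e and Atp5g2 were at 489 and 508 CPM and at 493 and 475 CPM. Atp5g3, which like Atp5g1 and Atp5g2 encodes the same mature c subunit of the rotor, had the highest ratio (112 and 133 CPM, 0.24), and Atp5c1, the central stalk, the lowest (246 and 223 CPM, -0.14). Under the alternatives the log2 ratio of Atp5c1 ran from -0.17 to 0.16, so its direction was not kept. The same held for Ndufc2 (-0.02 to 0.19), Ndufa13 (-0.04 to 0.12), Sdhb (-0.11 to 0.01), Sdha (-0.16 to 0.12), Cox8a (-0.04 to 0.06), Cox4i1 (-0.01 to 0.12) and Ndufa4 (-0.06 to 0.08).

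Cycs was at 67.2 (62.2 to 72.5) and 82.9 (76.2 to 90.0) CPM, a ratio of 1.23 (1.10 to 1.38). It had counts in 563 of 2393 and 431 of 1500 microglia. Among the remaining nuclear members, 12 subunit genes stayed under 50 CPM, and 4 of these had no count in microglia of either library (Cox7b2, Cox8b, Cox8c and 1 of the 2 rows named Atp5o). The symbol Atp5o is carried by 2 annotated genes, so the row with counts (103.6 and 116 CPM) is given with that limit. Of the 8 Ndufaf assembly factors only Ndufaf8 reached 50 CPM (59.0 and 56.5).

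Isoforms of complex IV subunits separated the cell classes. Cox4i2, the alternative form of the regulatory subunit Cox4i1, was at 883 (765 to 1014) and 1012 (877 to 1162) CPM in Müller glia or astrocytes, with counts in 45 of 50 and 34 of 37 cells. In microglia it had 7 and 3 counts, or 0.696 and 0.437 CPM, in 3 and 2 cells. Its level in the glia stood beside that of Cox4i1 in the same cells, 574 and 649 CPM. The other 5 gated classes had at most 2 Cox4i2 counts each. Cox6b2, a form best known from testis, was at 115 and 146 CPM in the glia and at 4.37 and 1.75 CPM in microglia. In the glial gate Rlbp1 had counts in 50 of 50 and 37 of 37 cells. Rlbp1 is among the markers that set this gate, so its presence there is no separate evidence of cell identity. Slc1a3 had counts in 45 and 36 of these cells, Aqp4 in 39 and 32, and Gfap in only 3 and 4. Of the pericyte genes, looked up after the isoform values above had been seen, Kcnj8 and Cspg4 had 0 counts. Rgs5 had counts in 3 and 3 cells and Pdgfrb in 17 and 14 cells.

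Cox6a2, the heart and skeletal muscle form of Cox6a1, was detected in microglia. It had 286 and 198 counts (28.4 and 28.8 CPM) in 129 and 93 cells, with 30 and 12 in the highest cell, beside 159 and 168 CPM for Cox6a1. The other 6 classes held 0 or 1 Cox6a2 count each. The upper limit lay below the microglial level in Müller glia or astrocytes (24.6 and 18.6 CPM) and in monocytes of the knockout label (17.7 CPM), and above it elsewhere, where a difference was not detectable at this depth. Microglia with a Cox6a2 count had more nuclear subunit RNA (1.66% and 1.76% against 1.41% and 1.43%) and mitochondrial RNA (1.94% and 1.72% against 1.32% and 1.43%) than those without. They also had more Itgax, an integrin of activated microglia (42.2 and 45.0 against 12.3 and 18.0 CPM), and less P2ry12, a microglial purine receptor (1079.7 and 877 against 1707 and 1644 CPM). Their median depth was higher, 5200 and 5295 against 3960 and 4364 UMIs, and its part in these differences was not tested. Cox6a2 is itself 1 of the nuclear subunit genes. All its counts lie in the cells with a count, so part of the nuclear difference was fixed by the split. In GRCm38 Cox6a2 lies on the minus strand at chr7:128205435-128206387, inside the span of Itgad on the plus strand (chr7:128154376-128223816). Itgad was at 0 and 1.55 CPM in those cells, and Itgax ends upstream at chr7:128150657. Cox7a1, also a muscle form, had 11 and 12 counts, Ndufa4l2, a form known from hypoxic cells, 1 and 0.

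Ndufa4 and Cox6c, both of complex IV, stood out in photoreceptors. Ndufa4 was at 5501 (4534 to 6614) and 3846 (2889 to 5018) CPM in rods, 18.1 and 12.8 times the microglial level, and at 2631 and 3377 CPM in bipolar cells. Cox6c was at 2629 and 2778 CPM in rods, 7.88 and 8.15 times microglia. mt-Atp8 was 8.91 and 9.59 times the microglial level in rods, from only 9 and 5 counts. The nuclear set as a whole was 5.30% and 5.13% of rod UMIs against 1.43% and 1.46% in microglia. Of mitochondrial genes, mt-Nd5 had the highest class ratio in bipolar cells, 2631 and 2129 CPM or 11.4 and 11.8 times microglia, followed among them by mt-Co3 with 8.07 and 9.95 times. Atp5g2 had one of the lowest ratios in rods (1.09 and 1.65 times microglia), and Ndufs8 in bipolar cells (0.601 and 0.629, from 4 and 4 counts, with intervals that span 1).

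Leukocyte classes differed from microglia in other members. In monocytes, Cox5a was at 457 and 489 CPM (2.89 and 3.02 times microglia), Atp5l at 848 and 868 CPM (2.76 and 2.65 times) and Cycs at 179 and 225 CPM (2.67 and 2.72 times). mt-Cytb was lower there, with 1256 and 1160.0 CPM (0.622 and 0.567 times). In B cells, mt-Atp6 was at 7492 and 9123 CPM (3.42 and 3.51 times) and mt-Co3 at 5191 and 6944 CPM (3.23 and 3.89 times). In neutrophils the same genes were low: mt-Atp6 had 6 and 16 counts (0.104 and 0.212 times microglia), mt-Co3 9 and 8 counts (0.213 and 0.154 times) and mt-Cytb 8 and 11 counts (0.151 and 0.185 times). Atp5l in neutrophils was at 724 and 997 CPM, 2.35 and 3.05 times microglia, so low mitochondrial counts did not extend to all members. Ndufc1 was at 446 and 388 CPM in Müller glia or astrocytes, 4.35 and 3.54 times microglia.

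The genes around the chain were read from 6 lists that served as context, again in microglia. Of 13 tricarboxylic acid cycle genes, 8 reached 50 CPM, with a median log2 ratio of -0.04, beside -0.03 for all 3224 genes, and 1 gene at least 1.2-fold lower, where 6.95% of all genes were: Suclg2 of succinyl-CoA ligase (53.5 and 43.7 CPM). Mdh2, malate dehydrogenase, was the most abundant (134 and 129 CPM), and Idh3g had the highest ratio (0.20). Of 32 assembly genes outside the Ndufaf group, 6 reached 50 CPM with a median of 0.10, and Cox17, the copper chaperone for complex IV, was 1.26 times higher (111 and 140.2 CPM), where 4.34% of all genes were past 1.2-fold; Cox20 had the lowest ratio (-0.12). All 8 carriers and porins reached 50 CPM and all 8 had ratios below 1, as had 1873 of all 3224 genes, from Vdac3 (-0.05) to Vdac2 (-0.18), with Slc25a5, the ADP/ATP carrier, the most abundant (462 and 428 CPM) and none past 1.2-fold.

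Regulators were scarce in the counts. Of 14 genes for mitochondrial transcription and messenger stability only Slirp reached 50 CPM (73.4 and 72.4), Tfam was at 22.7 and 24.5 CPM and Lrpprc at 25.1 and 26.8 CPM. Of 8 biogenesis regulators only Yy1 did (138 and 125 CPM, log2 ratio -0.15); Ppargc1a had 0 counts in both libraries, with upper limits of 0.367 and 0.537 CPM, and Nrf1 was at 25.2 and 28.0 CPM. Among 10 modulators of respiration, 7 reached 50 CPM with a median of 0.09, led by Chchd2 (419 and 448 CPM), with Etfb highest (0.23) and Higd2a lowest (-0.09) in ratio.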

How the data were processed

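Single retinal cells sorted for CD45 were sequenced with a 10x 3′ kit, per the labels' protocols. The authors deposited 1 table of counts per library; the deposited counts are whole UMI numbers per gene and barcode and were not normalized. Per the submitters' processing notes, the tool was Cell Ranger 3.1 and the build mm10. Barcodes with at least 500 UMIs and 250 genes were kept with no limit on mitochondrial counts, since these genes are the subject; 13 and 6 barcodes were left out. No doublet caller was run: cells lacking a lead of 2 markers met no gate, cells with a few markers of other classes could still pass, and leaving out the 5% of microglia with the most UMIs was an alternative. Counts were summed per class and library (numpy 2.4.6, scipy 1.17.1, pandas 2.3.3, Python 3.11.15). Intervals are exact at 95%: Poisson for levels, Clopper-Pearson for shares and conditional binomial for ratios; UMIs of 1 library are not biological replicates. The steps were tested on simulated data. Depth per library was 11020717 and 7945713 UMIs.

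Named genes are all mitochondrial members; per complex the 2 most abundant nuclear members and the highest and lowest ratio at 50 CPM; isoform pairs; in each context list the most abundant, highest and lowest; and per class up to 3 members highest and lowest against microglia in both libraries, with at least 3 counts in each. Genes outside that rule (Sdhc, Ndufaf8, Tfam, Lrpprc, Nrf1, Ppargc1a, the Cox7b2 and Atp5o rows, pericyte genes, Itgax, Itgad and P2ry12) were chosen after their values were seen. Members and lists were chosen with earlier results of these data known. Class minimum, depth bins and the looser border macrophage class were set after values had been seen.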

Additional observations from a re-analysis of the deposited data

How the results depend on the processing

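Over 7 comparisons in microglia, 69 of 104 alternative values moved by less than the main value's counting interval (counts by less than 1.5 times) and 35 moved by more. For the median log2 ratio the limit came from the counting interval of the nuclear share ratio. Keeping all deposited barcodes left the same 2393 and 1500 microglia, so its values could not move, here or for the single genes below. Without dissociation and stress program cells the mitochondrial ratio was 0.991, the nuclear ratio 1.02, mitochondrial per nuclear counts 1.21 and 1.18, the median log2 ratio of nuclear members 0.019, and 6 were at least 1.2-fold higher and 4 lower. Thinned to 1000 UMIs per cell these were 1.09, 1.04, 1.01 and 1.06, 0.077, 6 and 1. With equal weight per cell the mitochondrial ratio was 1.13, mitochondrial per nuclear counts 1.01 and 1.11, and the median 0.059. With 3000 UMIs or more the values were 1.02, 1.02, 0.919 and 0.921, and a median of 0.016; with 3000 to 8000 UMIs they were 0.996, 1.00, 0.899 and 0.894, and 0.0018; both were chosen after seeing the data. Mitochondrial per nuclear counts were 0.945 and 0.978 with at most 1 marker of other classes, 0.964 (wildtype label) with any lead in markers, and 0.946 (wildtype label) without the 5% of cells with the most UMIs. Centred on all genes the median was 0.064. A minimum of 100 CPM left 0 nuclear members 1.2-fold higher, and no minimum gave 3 lower. The cause was not tested.

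For 49 single genes, 564 of 636 values moved by less than their interval. mt-Nd4l ranged from -1.48 to -0.91 on the log2 scale, mt-Nd5 from -0.42 to -0.31, Cycs from 0.28 to 0.36 and Ndufs6 from 0.24 to 0.41. Classes other than microglia rest on 8 to 50 cells per library. No paired analysis was possible because each group is 1 library.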
